A study of Mus musculus with 40 samples.

Results

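The zinc finger members described here are the genes on the arrays whose symbol begins with Zfp and a digit, Zbtb, Zscan or Zkscan, without the Zfp36 group, whose products bind RNA through another kind of finger. They comprise 111 genes of the 6970 named on the arrays, with 96 Zfp, 10 Zbtb, 2 Zscan and 3 Zkscan genes. Array design 1 carried 53 of them on 58 probes and array design 2 carried 72 on 81 probes, after spots of one accession had been averaged, and 14 genes were on both. No member was chosen by its measured value.

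Cultured mouse embryos were exposed without interruption to 40 µM 4-hydroperoxycyclophosphamide for 5 h at 37 °C, and their total RNA was hybridised on 2-colour arrays against total RNA of untreated control embryos cultured at 37 °C. The compound is a pre-activated form of cyclophosphamide, which alkylates and crosslinks DNA. The 40 arrays hold 5 replicates on each of the 2 designs, and each replicate has both dye orientations and 2 readouts of every slide. The readouts are read from the sample titles, where 1 of the 2 entries of a slide number bears a B. What the B stands for is not stated. The slide series 2000 and 3000 are named here after the leading digits of the slide numbers, and the labels do not explain these digits. The labels name no strain, stage or number of embryos per sample. Nothing in the labels says that the replicates came from separate cultures, so the spread behind each p-value may be technical. RNA of whole embryos cannot tell fewer cells of a type from less RNA per cell.

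All values are log2 ratios of treated over control embryos, with the median of each array set to 0 and 1 value per replicate averaged over the dye orientations and readouts, and a probe was called where the Benjamini-Hochberg adjusted p of limma over all probes of its design was below 0.05. Treated over control is the likely direction, from the order of the channels in the labels and from the p53 target Ccng1, which was positive on every single array that measured it, at 2.41 ± 0.31 and 2.90 ± 0.46 for its probes on design 1 and 1.39 ± 0.40 on design 2 (SD, n = 5). The direction is not settled, because the labels do not state which channel is the numerator of the ratio. Some arrays of one orientation also opposed each other over all probes (r under −0.3 in 1 of 80 pairs on design 1, lowest −0.31, and in 5 of 80 pairs on design 2, lowest −0.541). Were the direction turned, every rise given here would be a fall of the same size, and 14 members higher and 11 lower would read as 14 lower and 11 higher. A ratio holds no level, so neither the abundance of these transcripts nor the identity of the tissue could be checked from it.

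Most Zfp genes encode proteins with a row of C2H2 fingers, each finger held together by a zinc ion and reading a few bases of DNA. Many of them begin with a KRAB domain, which recruits TRIM28 and with it histone methylation and heterochromatin, often at retrotransposons, and such genes lie in clusters of close paralogues. Zbtb proteins carry a BTB domain through which they pair and bind corepressors, and Zscan and Zkscan proteins carry a SCAN domain that joins them to one another. Close paralogues share sequence, so a probe for one may also report its neighbours, and the values of clustered members are uncertain to that extent.

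The starts of 6 called members are shown because they belong to the groups that the results turn on, namely Zfp708, the single rise called on design 1, Zfp820 and Zfp948 among the rises on chromosome 17, and Zfp954, Zfp296 and Zfp444 among the falls on chromosome 7. The windows are from RefSeq on GRCm38.p6, 250 bases before to 50 after the transcript start, read 5′ to 3′ on the gene's strand. They lie at chr13:67097927-67098226 on the minus strand for Zfp708 (the first of 2 starts listed), chr17:21845710-21846009 on the minus strand for Zfp820, chr17:21566728-21567027 on the plus strand for Zfp948, chr7:7121427-7121726 on the minus strand for Zfp954, chr7:19577037-19577336 on the plus strand for Zfp296 and chr7:6172263-6172562 on the plus strand for Zfp444. Capitals mark GC boxes (GGGCGG, the site of Sp factors) and CCAAT boxes (CCAAT, the site of NF-Y), searched on both strands.
Zfp708: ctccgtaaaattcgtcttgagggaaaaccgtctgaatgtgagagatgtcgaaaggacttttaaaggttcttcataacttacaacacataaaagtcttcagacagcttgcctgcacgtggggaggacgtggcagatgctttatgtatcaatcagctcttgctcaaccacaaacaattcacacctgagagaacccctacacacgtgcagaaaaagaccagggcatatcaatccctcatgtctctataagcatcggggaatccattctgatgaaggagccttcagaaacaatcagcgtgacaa
Zfp820: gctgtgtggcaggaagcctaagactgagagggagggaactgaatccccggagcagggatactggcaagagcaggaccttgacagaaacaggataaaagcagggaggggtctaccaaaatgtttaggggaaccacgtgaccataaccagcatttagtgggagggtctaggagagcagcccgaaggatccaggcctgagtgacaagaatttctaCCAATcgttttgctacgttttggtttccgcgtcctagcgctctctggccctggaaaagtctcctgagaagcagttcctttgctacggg
Zfp948: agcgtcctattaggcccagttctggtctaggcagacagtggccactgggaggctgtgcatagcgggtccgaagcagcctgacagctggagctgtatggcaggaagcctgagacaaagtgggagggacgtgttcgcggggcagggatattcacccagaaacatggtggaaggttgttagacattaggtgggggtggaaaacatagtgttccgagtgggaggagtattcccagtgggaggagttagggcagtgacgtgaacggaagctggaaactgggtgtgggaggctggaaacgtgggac
Zfp954: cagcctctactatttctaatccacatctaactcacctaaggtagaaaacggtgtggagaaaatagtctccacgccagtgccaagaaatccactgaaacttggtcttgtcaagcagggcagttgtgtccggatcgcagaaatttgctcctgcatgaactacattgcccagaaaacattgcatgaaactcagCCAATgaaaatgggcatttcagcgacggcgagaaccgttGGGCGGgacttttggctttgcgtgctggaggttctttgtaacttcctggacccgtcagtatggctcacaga
Zfp296: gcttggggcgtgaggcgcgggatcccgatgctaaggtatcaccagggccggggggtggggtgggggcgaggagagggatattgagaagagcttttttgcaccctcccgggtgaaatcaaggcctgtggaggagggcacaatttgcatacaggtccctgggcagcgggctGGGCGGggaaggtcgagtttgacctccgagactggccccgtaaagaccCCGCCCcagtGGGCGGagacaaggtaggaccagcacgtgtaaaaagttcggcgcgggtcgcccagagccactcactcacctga
Zfp444: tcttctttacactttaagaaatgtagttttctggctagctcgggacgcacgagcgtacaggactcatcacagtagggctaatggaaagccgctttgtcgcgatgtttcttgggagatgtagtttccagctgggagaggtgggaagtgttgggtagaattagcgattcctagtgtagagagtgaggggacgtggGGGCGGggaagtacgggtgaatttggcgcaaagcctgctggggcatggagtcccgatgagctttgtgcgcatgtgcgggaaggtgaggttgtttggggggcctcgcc

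A window was found for 92 of the 111 members. A GC box was in 50 of them (54.3%), against 35.9% of all 27025 windows in the table, and a CCAAT box in 43 (46.7%), against 37.9%. The 27025 windows, 1 per gene, are not limited to genes on the arrays. Shares over the genes on the arrays alone were not taken. The median GC content was 55.7% in the members and 52.7% in all windows. Of the windows of members called higher, 5 of 10 held a GC box, 6 a CCAAT box, 5 a YY1 site (CCATNTT), and none a p53 half-site or a cyclic AMP response element. Of the 8 windows of members called lower, 8 held a GC box, 3 a CCAAT box, 2 a YY1 site, 1 a p53 half-site and none a cyclic AMP response element. Zfp708, Zfp820 and Zfp948 had no GC box, while Zfp954 and Zfp444 had 1 each and Zfp296 had 3. The YY1 site was in 20 members (21.7%), against 16.3% of all windows. The cyclic AMP response element (TGACGTCA) was in 1 member (1.09%), against 1.88%. A p53 half-site was in 5 members (5.43%), against 8.37%. These are counts of letters in the windows and not binding data.

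On array design 1, Zfp708 was the single called member, 1 of 58 probes (1.72%) against 0.651% of all 7680 probes. ZFP708 is a KRAB protein that binds retrotransposons in the mouse. Its log2 ratio was 0.46, 0.41, 0.44, 0.71 and 0.82 in replicates 1 to 5, all above 0. The mean was 0.57 ± 0.18 (SD, n = 5), a ratio of 1.48, with limma adjusted p = 0.028. The rise was present in both dye orientations, at 0.44 with treated embryos in channel 1 and 0.70 with them in channel 2. It was also present in slides of series 2000 (replicates 1 and 2, mean 0.44) and series 3000 (replicates 3 to 5, mean 0.65). The call did not hold when replicate 1, 2, 3 or 5 was left out, with means of 0.50 to 0.61 and limma adjusted p of 0.0166 to 0.0977 over all leave-one-out fits, nor with the slide series as a term (limma adjusted p = 0.0502).

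Zfp932, whose KRAB protein silences endogenous retroviruses in mouse embryonic stem cells, had 0.20, 0.47, 0.35, 0.68 and 0.92 in replicates 1 to 5. Its mean of 0.52 ± 0.28 missed the threshold (limma adjusted p = 0.0516), although all 5 replicates were above 0. Zfp943, a KRAB-type gene of the chromosome 17 cluster, had 0.23, 0.24, 0.24, 0.49 and 0.78, with a mean of 0.39 ± 0.24 (limma adjusted p = 0.0516). In Zfp943 the orientations differed, with 0.04 in channel 1 and 0.75 in channel 2. Zfp568, a repressor of a placental Igf2 transcript that is needed for gastrulation in the mouse, had 0.11, 0.16, 0.27, 0.28 and 0.17 and a mean of 0.19 ± 0.07 (limma adjusted p = 0.0517). Its orientation means had opposite signs, at 0.76 and −0.37. Zfp790, at 0.07 ± 0.07 (limma adjusted p = 0.387), was the remaining member above 0 in all 5 replicates. The lowest members with one sign in all replicates were Zfp957 at −0.27 ± 0.17, a probe of Zfp276 at −0.25 ± 0.11, Zfp735 at −0.22 ± 0.06, Zfp84 at −0.19 ± 0.05 and Zfp750 at −0.18 ± 0.09, none of which passed. Their means were −0.521 to −0.466 with treated embryos in channel 1 and −0.0124 to 0.143 in channel 2. After removal of the dye-profile trend described below they were −0.0963 to 0.0158. The other Zfp276 probe of design 1 stood at −0.07 and was not called. Zfp735 had −0.19, −0.22, −0.16, −0.22 and −0.31, with orientation means of −0.47 and 0.03.

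The count on design 1 depends on a single readout. The B readout of replicate 4 with treated embryos in channel 2 lacked 786 of 7680 values (10.2%), including 7 of the 58 members, Zfp708, Zfp932 and Zfp943 among them. Without it, 7 members passed (12.1%), against 15.9% of all probes. Zfp708, Zfp932, Zfp943 and Zfp568 were then higher and Zfp84, Zfp735 and Zfp957 lower, with limma adjusted p of 0.000457 for Zfp708, 0.00308 for Zfp932 and 0.00749 for Zfp943. Leaving that readout out did not alter the means of these 3 genes, because it held no value for them. At an unadjusted p under 0.05 stood 16 members (27.6%) with all readouts, against 33% of all probes.

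On array design 2, 25 of 81 probes (30.9%) were called, against 27.8% of all 7599 probes. They belong to 23 genes, with 14 probes higher (17.3%, against 19.8% of all probes) and 11 lower (13.6%, against 8.07%). The members' share called is near that of the design as a whole. The directions hold relative to the median probe, since without centring the median of all probes lay at −0.413 on design 2 and −0.235 on design 1. Without centring the members' calls were 0 higher and 76 lower on design 2, where 87.6% of all probes were called. On design 1 they were 1 higher and 40 lower, where 60.1% of all probes were called. Of the 25 called probes, 21 had one sign in every replicate, 11 higher and 10 lower. No member reached a 1.5-fold change on either design, a size that 42 probes reached on design 1 and 43 on design 2.

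**Figure D1:**
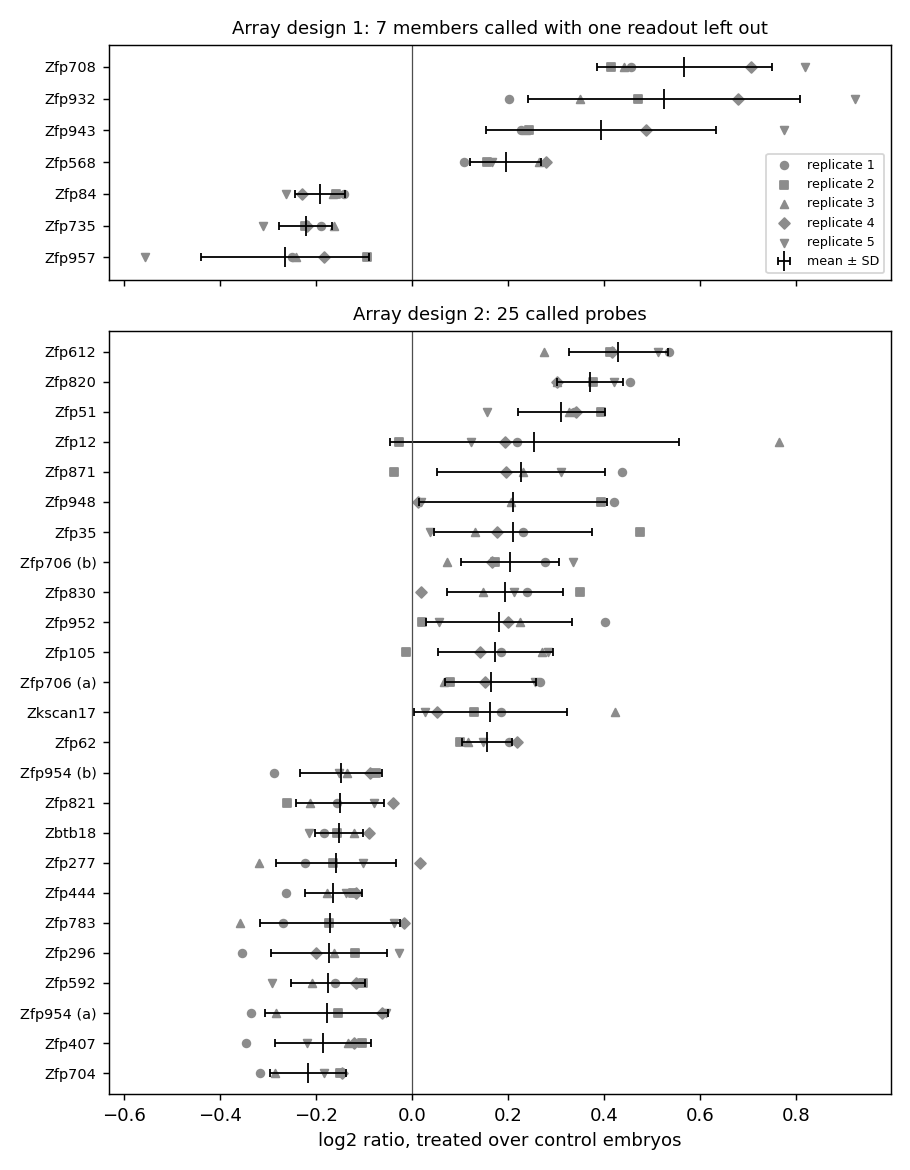
Log2 ratios of treated over control embryos in each replicate (grey symbols, a shape per replicate) with the mean and SD (black), for the 7 design 1 members that passed without the incomplete readout and the 25 probes called on design 2, where (a) and (b) mark separate probes of a gene. The values drawn are those of all readouts, with the incomplete one included. Replicates of Zfp612, Zfp820 and Zfp51 all lie above 0, and Zfp704 has the lowest mean of design 2, −0.22.

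Zfp612 had the highest mean on design 2, with 0.53, 0.41, 0.27, 0.42 and 0.51 in replicates 1 to 5 (0.43 ± 0.10, SD, n = 5, limma adjusted p = 5.79e-06). All 5 replicates were above 0, but the orientations were not alike. With treated embryos in channel 1 the mean was −0.23, and in channel 2 it was 1.09. Zfp820, in the chromosome 17 cluster, had 0.45, 0.38, 0.30, 0.30 and 0.42 (0.37 ± 0.07, limma adjusted p = 1.86e-05). It rose in both orientations, by 0.28 and 0.46. Zfp51, a neighbour in that cluster, had 0.34, 0.39, 0.33, 0.34 and 0.16 (0.31 ± 0.09, limma adjusted p = 0.000163), with 0.27 and 0.35 in the orientations. Zfp820 and Zfp51 rose by 1.29- and 1.24-fold.

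Smaller rises were called for 11 further probes, from Zfp12 at 0.25 ± 0.30 to Zfp62 at 0.16 ± 0.05. Zfp12 had 0.22, −0.03, 0.76, 0.19 and 0.12, so that replicate 3 stood above the others and replicate 2 just below 0. Zfp706, which in mouse embryonic stem cells restrains Klf4, was called higher by both of its probes, at 0.20 ± 0.10 and 0.16 ± 0.09. The first of them had 0.28, 0.17, 0.07, 0.17 and 0.33. Zfp830, known as Omcg1 and needed in early mouse embryos, had 0.24, 0.35, 0.15, 0.02 and 0.21 (0.19 ± 0.12, limma adjusted p = 0.0142), with 0.66 in channel 1 and −0.28 in channel 2. Zfp35 and Zfp948 showed the same division, at 0.87 and −0.45 for Zfp35 and 0.77 and −0.35 for Zfp948, with means of 0.21 each. Zfp871 (0.23 ± 0.17), Zfp952 (0.18 ± 0.15), Zfp105 (0.17 ± 0.12) and the SCAN and KRAB gene Zkscan17 (0.16 ± 0.16) complete the group.

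The deepest fall was that of Zfp704, with −0.32, −0.15, −0.28, −0.15 and −0.18 in replicates 1 to 5 (−0.22 ± 0.08, SD, n = 5, limma adjusted p = 0.0047). It was alike in the orientations, at −0.20 and −0.23, and control embryos exceeded treated ones by 1.16-fold. Zfp407, whose product was linked to adipocyte gene expression in the mouse, had −0.35, −0.10, −0.13, −0.12 and −0.22 (−0.19 ± 0.10), with −0.38 in channel 1 and 0.01 in channel 2. Zfp954 was lower by both of its probes, at −0.18 ± 0.13 and −0.15 ± 0.08. Zfp296, a stem cell factor that aids reprogramming in the mouse, had −0.35, −0.12, −0.16, −0.20 and −0.03 (−0.17 ± 0.12), with −0.09 and −0.25 in the orientations. Zbtb18, a repressor of neuronal differentiation genes in the mouse cortex, had −0.18, −0.16, −0.12, −0.09 and −0.22 (−0.15 ± 0.05, limma adjusted p = 0.0329), with −0.43 and 0.12. The remaining falls were Zfp592 (−0.18), Zfp783 (−0.17), Zfp444 (−0.16), 1 of 2 probes of Zfp277 (−0.16, the other −0.01 and uncalled), a partner of the Polycomb protein BMI1, and 1 of 2 probes of Zfp821 (−0.15, the other −0.13 and uncalled).

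The orientation means had one sign in 13 of the 25 called probes (52%), against 56.1% of the 2114 probes called on the design. Over all 81 member probes this held for 23 (28.4%), against 34.2% of all probes on design 2, and for 16 of 58 (27.6%), against 29.1%, on design 1. The dye part, the mean of the ratios without turning the swapped arrays, had a median size of 0.162 in members of design 2 against 0.1 for the treatment part. After removal of a smooth trend of the treatment part on the dye profile, 4 members were called on design 2 (4.94%), against 5.03% of all probes. Zfp820 (0.24, limma adjusted p = 0.0100) and Zfp51 (0.19, limma adjusted p = 0.0209) kept their calls. Zfp207, a spindle and pluripotency factor (−0.28, limma adjusted p = 0.0041), and Zfp281, a stem cell repressor (−0.16, limma adjusted p = 0.0324), passed there, having had means of 0.02 and −0.01 before. On design 1, Zfp708 remained the single call, at 0.34 ± 0.09 (limma adjusted p = 0.00783), 1.72% against 0.781% of all probes. Zfp612 stood at 0.03 (limma adjusted p = 0.684) and Zfp704 at −0.17 (limma adjusted p = 0.0522). All 25 called probes of design 2 kept their sign, and 2 passed.

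**Figure D2:**
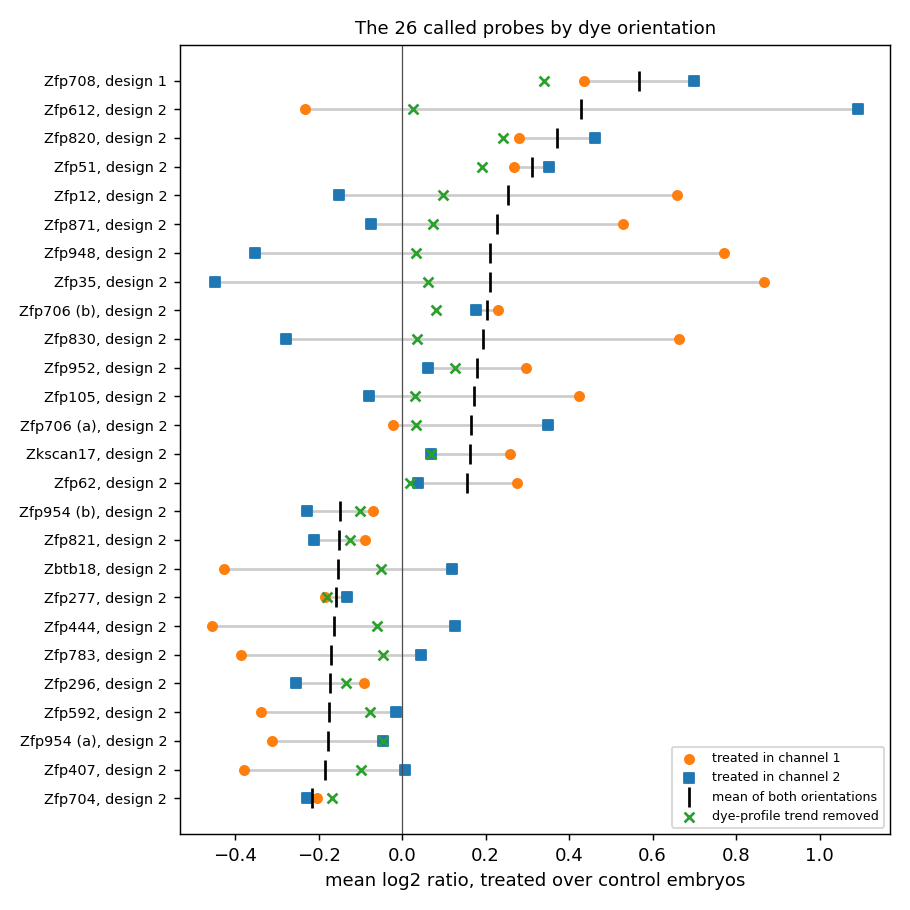
Mean log2 ratios of treated over control embryos for the 26 called probes, with treated embryos in channel 1 (orange), in channel 2 (blue), over both (black bar) and after removal of the dye-profile trend (green cross). Zfp708, Zfp820, Zfp51 and Zfp704 have both orientations on one side of 0, while Zfp612, Zfp948, Zfp35 and Zfp830 have them far apart.

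As a group the members were centred as other probes were. The median log2 ratio was −0.02 on design 1 against 0.00 for all probes, and 0.02 on design 2 against 0.02, and the median SD over replicates was 0.145 against 0.145 and 0.121 against 0.117. Absolute means were under 0.1 in 33 of 58 probes on design 1 and in 40 of 81 on design 2, and above 0.3 in 3 probes on each. One sign in all 5 replicates was found in 20 of 58 members (34.5%, 5 above and 15 below 0), against 31.1% of all probes on design 1 (994 above and 1391 below 0). On design 2 it was found in 30 of 81 (37%, 13 above and 17 below 0), against 33.8% of all probes (1526 above and 1046 below 0). Among probes of one sign on design 2, falls thus outnumbered rises in the members, and rises outnumbered falls in all probes. By calls the members there had 14 probes higher and 11 lower, and their median was 0.02.

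**Figure D3:**
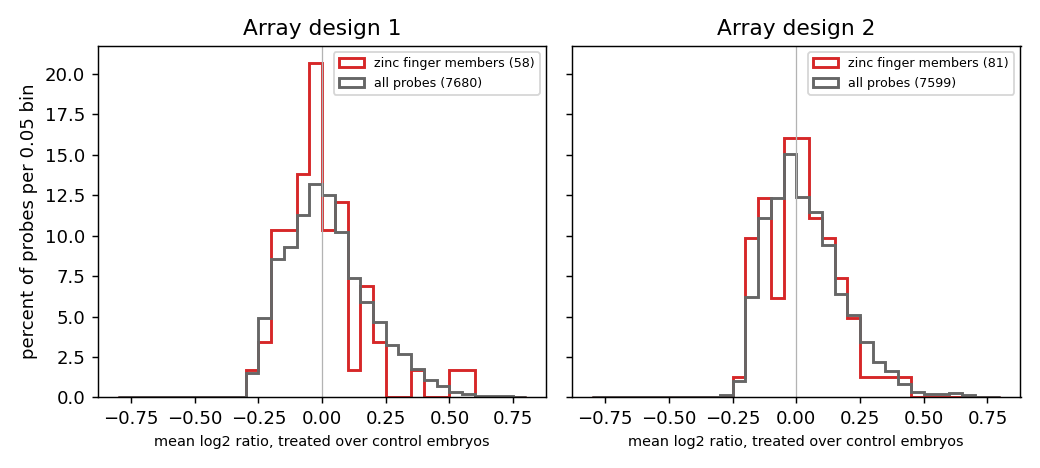
Mean log2 ratios of treated over control embryos, as the percent of probes in bins of 0.05, for the zinc finger members (red) and all probes (grey) of each array design; the few probes beyond 0.8 are not drawn. The members follow the outline of all probes, with medians of −0.02 and 0.02, and none lies beyond 0.57.

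By symbol, the 68 Zfp probes of design 2 hold 13 higher calls (19.1%, against 19.8% of all probes) and 10 lower calls (14.7%, against 8.07%), with a median of 0.03. Of 9 Zbtb probes there (median −0.0045), Zbtb18 alone was called, 11.1% against 27.8% of all probes. Zkscan17 was the 1 call of 2 Zkscan probes (50%), and neither of the 2 Zscan12 probes was called (0.03 and 0.00). On design 1, where 0.651% of all probes were called, none of 5 Zbtb, 2 Zkscan and 1 Zscan probes was.

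Over both designs, 24 genes had several probes, 17 of them with one sign. Of the 8 with a called probe, Zfp706 and Zfp954 had all probes called, and none had calls in both directions. Of the 14 genes on both designs, 10 had means of one sign. Zfp871 differed, at 0.23 on design 2 (called) and −0.14 ± 0.10 on design 1 (limma adjusted p = 0.126). Zfp592 had a called probe at −0.18 and another at 0.12 on design 2, and −0.01 on design 1. Zfp957 had −0.27 on design 1 and −0.03 on design 2.

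On design 2 the called members were uneven over chromosomes, a pattern noticed after the values were seen. On chromosome 17, 5 of 9 probes were called higher (55.6%) and none lower, with a median of 0.18, whereas of the 194 other named probes there 22.7% were higher and 3.61% lower. The 5 are Zfp820, Zfp51, Zfp948, Zfp952 and Zfp871, and the other probes with a value above 0 are a second Zfp948 probe (0.12) and Zfp57 (0.03). Zfp598 and Zfp101 lay below 0, the lower of them at −0.138. On chromosome 7, 5 of 10 probes were called lower (50%) and none higher, with a median of −0.14, whereas of 331 other named probes there 6.34% were lower and 26.6% higher. The 5 are both Zfp954 probes, Zfp296, Zfp444 and Zfp592. On design 1, where 0.651% of all probes were called, neither chromosome had a called member. The medians there were −0.07 over 7 member probes of chromosome 17 and −0.02 over 10 of chromosome 7. With the trend removed, the design 2 medians were 0.03 and −0.04.

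In the gene order of GRCm38.p6, Zfp54, Zfp51, Zfp948, Zfp229, Zfp820 and Zfp943 follow one another on chromosome 17, with 0 to 3 coding genes between neighbours. Zfp51, Zfp948 and Zfp820 were called on design 2. Zfp943 and Zfp54 had 0.39 and 0.20 on design 1 without a call, and Zfp229 had −0.07. Members with 3 or more zinc finger genes among their 10 nearest coding genes had 7 higher and 3 lower calls among 25 probes of design 2 (28% and 12%, median 0.04), and those with fewer 7 and 7 among 55 (12.7% each, median 0.01), beside 19.8% and 8.07% of all probes. Zfp783, called lower, is in neither count because the gene table does not list it as coding.

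**Figure D4:**
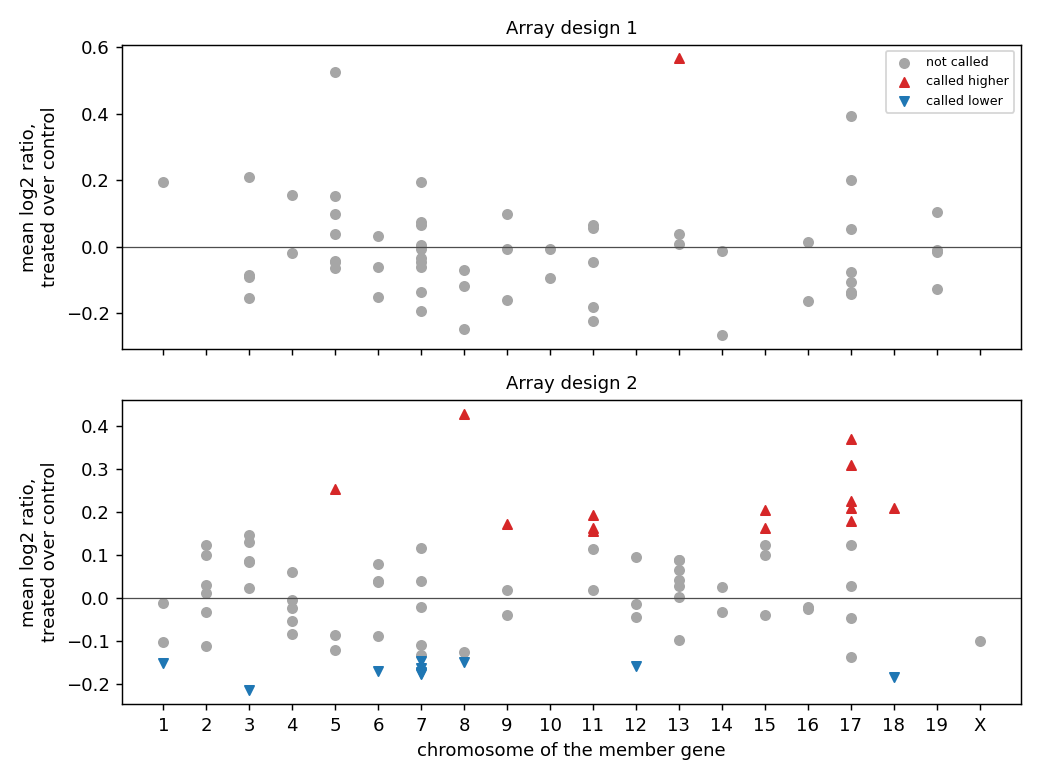
Mean log2 ratios of treated over control embryos of the member probes by the chromosome of the gene, on array design 1 (top) and array design 2 (bottom), with triangles for called probes. On design 2, 5 of 9 probes of chromosome 17 were higher and 5 of 10 of chromosome 7 lower, and on design 1 neither chromosome holds a call.

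Among members known from stem cells, imprinting or retrotransposon silencing, 8 genes were measured on each design. Zfp708 was called on design 1, 1 of 8 probes (12.5%, against 0.651% of all probes). On design 2 both Zfp706 probes rose and Zfp296 fell, 3 of 9 probes (33.3%, against 27.8% of all probes). With the trend removed none of these 3 was called. Zfp207 (−0.28, limma adjusted p = 0.0041) and Zfp281 (−0.16, limma adjusted p = 0.0324), of the same list, were then called lower on design 2. Their design 1 probes, with the trend removed, were not called. Zfp207 stood there at −0.045 (limma adjusted p = 0.773) and Zfp281 on the other side of 0, at 0.168 (limma adjusted p = 0.48). The imprint guardians Zfp57 and Zfp445 stood at 0.03 ± 0.12 and 0.02 ± 0.09, the stem cell marker Zfp42 (Rex1) at −0.12 ± 0.09 and Zfp809, which starts the silencing of endogenous retroviruses in the mouse, at 0.10 ± 0.25, none of them called. Among developmental members, none of 4 probes was called on design 1, against 0.651% of all probes. On design 2, 2 of 7 were called (28.6%, against 27.8% of all probes), where Zfp407 and Zbtb18 fell. Neither was called with the trend removed (limma adjusted p = 0.152 for Zfp407 and 0.429 for Zbtb18). Zfp335, of neural progenitors, had 0.10 ± 0.11, and Zbtb20, of hippocampus and liver, −0.16 ± 0.10 on design 1 and −0.03 ± 0.13 on design 2. Of 17 members linked to p53 in the literature, Zfp219 was measured and stood at −0.01 ± 0.17.

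The corepressors and chromatin proteins through which these factors act had no call among 29 probes on design 1 (median 0.05), where 0.651% of all probes were called. On design 2, 10 of 34 probes were higher (29.4%, against 19.8% of all probes) and 2 lower (5.88%, against 8.07%), with a median of 0.05, against 0.02 for all probes. Sap18 (0.28 ± 0.10), both Rbbp4 probes (0.29 ± 0.13 and 0.26 ± 0.08), Sumo2 (0.26 ± 0.12) and the heterochromatin protein Cbx5 (0.23 ± 0.09) rose, and Trim28 itself had 0.15 ± 0.12 (limma adjusted p = 0.0547). The probes of Hdac2 were called in opposite directions, at 0.22 and −0.16, and so were those of Cul3, at 0.14 and −0.15. With the trend removed none of them was called higher and 2 were lower (Chd4 and Sin3a). Of other C2H2 factors, none of 26 probes passed on design 1, against 0.651% of all probes. On design 2, 3 of 28 (10.7%, against 19.8% of all probes) rose, namely the imprinted Peg3 (0.27 ± 0.14), the neuronal repressor Rest (0.23 ± 0.17) and Sp1 (0.16 ± 0.13). None of these 3 was called with the trend removed (limma adjusted p = 0.206 for Peg3, 0.0691 for Rest and 0.62 for Sp1). The other Peg3 probe of design 2 stood at 0.08 ± 0.15 and was not called.

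Of the 3 erythroid marker genes on design 2, the globin genes Hbb-y and Hba-x were higher, and Alas2 stood at −0.00177 without a call. By probes 5 of 6 were higher (4 of Hbb-y at 0.58 to 0.63 and Hba-x at 0.58), so that 1 gene makes up most of them. The share of all probes called higher was 19.8%. With the trend removed, 3 Hbb-y probes were called, the 4 Hbb-y probes stood at 0.31 to 0.35 and Hba-x at 0.23 (limma adjusted p = 0.105). The single erythroid probe of design 1, for Gata1, stood at −0.06. Visceral endoderm markers had no call among 5 probes of design 1 (−0.165 to −0.0573), where 0.651% of all probes were called. Of placental and decidual markers, none of 4 probes on design 1 was called, and 1 of 3 on design 2 was lower (33.3%, against 8.07% of all probes). That was a Dcn probe at −0.18, which stood at −0.07 with the trend removed (limma adjusted p = 0.297). The other Dcn probe of design 2 stood at 0.03 and was not called. The part of these cell types in the members' values was not tested.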

How the data were processed

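Total RNA of treated and control embryos was compared on 2-colour arrays. The authors deposited log ratios, read here as log2 of channel 1 over channel 2; base 2 is assumed, and the labels name no scanner, background correction or normalization. The deposited values were not centred (array medians −1.73 to 1.69). Probes were named through the platform annotation, and all 111 members matched the GRCm38.p6 gene table, used for names and gene order only. Each array was centred on its median, spots of one accession were averaged, control-over-treated ratios were turned, and readouts and orientations were averaged to 1 value per replicate. With limma 3.58.1 (R 4.3.3), lmFit and eBayes gave a two-sided test of each mean against 0 on every probe with values in at least 3 replicates, within each design. The dye-profile trend was fitted with mgcv 1.9.3 on the leading 3 components of the dye profile and took 34 to 81.5% of a replicate's variance. Array number limits the precision.

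Named are, per design, the 8 largest called rises and 8 largest called falls with one sign in every replicate; where under 5 members passed, the 5 highest and 5 lowest with one sign; members with several probes where one was called; and members of the gene lists. Zfp12, Zfp105, Zfp62, Zkscan17, Zscan12 and the probes singled out by chromosome were added after their values were seen. Members and lists were chosen with earlier results of these data known.

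In simulated data with 100 probes changed by 0.25 and 100 by 0.5, the design 1 fit recovered 70% and 94% and the design 2 fit 80% and 97%, with 13 and 11 false calls. These shares hold for the simulated data only and do not give the share of real changes found. In the real data of design 1, Zfp932 at 0.52 ± 0.28 and Zfp943 at 0.39 ± 0.24 were not called.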

Additional observations from a re-analysis of the deposited data

Results flagged for a closer look

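In 3 of the 65 sets of 5 replicates tested, 1 replicate lay far from the other 4, a gap that chance gives in about 1 of 20 sets. Zfp296 on array design 1 had 0.121 in replicate 2, where the others had −0.125 to −0.0574. Zfp51 on array design 2 had 0.156 in replicate 5, where the others had 0.326 to 0.394. The uncalled Zfp821 probe on array design 2 had −0.376 in replicate 1, where the others had −0.0899 to −0.0412.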

How the results depend on the processing

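With no centring, 41 of 58 member probes were called on design 1, against 60.1% of all probes. On design 2 it was 76 of 81, all lower, against 87.6% of all probes. The member medians were −0.255 and −0.411, because array medians then enter every ratio. Brackets give the share of all probes called in the same setting. On design 1, where 1 of 58 was called (0.651%), arrays scaled to one spread gave 3 (4.49%), plain readouts 3 (6.52%) and B readouts 0 (0.0391%). Treated embryos in channel 1 only gave 17 (30.3%) and channel 2 only 10 (14.4%). A replicate block over single arrays gave 5 (7.41%), a term for the slide series 0 (0.156%) and series 3000 alone 0 (0.0391%). An ordinary one-sample test gave 0 (0.885%) and omission of the incomplete readout 7 (15.9%). Omission of a replicate gave 0 to 1 (0.0911% to 1.07%). On design 2, where 25 of 81 were called (27.8%), scaled arrays gave 13 (17.5%) and plain readouts 8 (14.2%). Channel 1 only gave 14 (15.7%) and channel 2 only 1 (1.54%). Series 3000 alone gave 5 (10.7%), the ordinary test 7 (11.4%) and removal of the trend 4 (5.03%). Omission of a replicate gave 6 to 26 (13.3% to 34.7%). The replicate block gave 27 calls there (32.5%), 22 shared with the 25. Of those 25, 5 passed whichever replicate was omitted (Zfp612, Zfp820, Zfp51, Zfp704 and a probe of Zfp706). Removing the trend together with the incomplete readout, a setting chosen after seeing the data, left Zfp708 called (1 of 58, against 1.54% of all probes). The causes were not tested.

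Signs of named probes turned, with a call on at least one side, without centring on design 1 in Zfp790 −0.17, Zfp207 −0.17, Zbtb14 −0.19 and on design 2 in Zfp820 −0.0581, Zfp51 −0.12, Zfp948 −0.22, Zfp35 −0.22, Zfp706 −0.22, Zfp830 −0.24, Zfp952 −0.25, Zfp706 −0.27, Zbtb7b −0.30, Zfp335 −0.33, Zfp462 −0.37, Zfp57 −0.40, Zfp503 −0.40, Zfp445 −0.41, Zfp207 −0.41, Zbtb46 −0.42, Zfp871 −0.20, Zfp948 −0.31, Zfp592 −0.31, Zfp12 −0.17, Zfp105 −0.26, Zkscan17 −0.27, Zfp62 −0.27, Zscan12 −0.40, Zscan12 −0.43. With treated embryos in channel 2 only they turned on design 1 in Zfp568 −0.37, Zfp790 −0.55, Zfp207 −0.55 and on design 2 in Zfp948 −0.35, Zfp35 −0.45, Zfp830 −0.28, Zfp407 0.00804, Zfp783 0.0449, Zfp444 0.13, Zbtb18 0.12, Zfp871 −0.0746, Zfp12 −0.15, Zfp105 −0.0785, in channel 1 only on design 2 in Zfp612 −0.23, Zfp706 −0.0216, and with the trend removed on design 2 in Zfp207 −0.28. Named probes with no call on either side also turned, 4 without centring, 20 in channel 2, 9 in channel 1 and 9 with the trend removed. In single orientations the dye part does not cancel.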
